A study of Pan troglodytes with 217 samples.

Results

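Growth factor receptors of the PDGF, VEGF, KIT, EGF and IGF families, with some of their ligands, were followed through the lineages of the chimpanzee blastoid. A total of 10 genes were chosen by name: the receptors PDGFRA, KDR, FLT1, KIT, EGFR and IGF1R and the ligands PDGFA, VEGFA, PGF and KITLG. All 10 were matched, each to 1 of the 33729 gene identifiers in the count table. Blastoids are blastocyst-like structures formed here from naive chimpanzee induced pluripotent stem cells, and single cells were taken from them on day 4. The naive cells had been propagated with an inhibitor of EZH2, the enzyme of the Polycomb complex PRC2. To form blastoids, cell clusters were held first with the MEK kinase inhibitor PD0325901, the activin receptor inhibitor A83-01, LPA and Y-27632. They were then kept without the MEK inhibitor, and last in the basal medium N2B27 alone. Most of the mural trophectoderm was cut off by hand, so that it would not be over-represented, and was dissociated apart from the rest. Cells went into individual wells for SMART-seq2, a full-length cDNA method without molecular identifiers. The labels give every cell the same tissue and cell type and record neither genotype nor treatment per cell.

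These receptors are tyrosine kinases of the cell surface. A ligand, secreted or held on the membrane of a neighbouring cell, brings receptor chains together, and the activated receptor signals through the RAS, MEK and ERK cascade and through phosphoinositide 3-kinase. In the mouse blastocyst PDGFRA is a classical marker of the primitive endoderm, the hypoblast of primates. Placental growth factor, PGF, is a VEGF relative of the trophoblast that binds FLT1, whereas VEGFA binds both KDR and FLT1.

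The question was which lineage carries the RNA of each ligand and which that of its receptor. All cells carry 1 label, and the labels give no blastoid, cell line or batch for a cell, so all of them stand as 1 unreplicated sample and nothing was tested. Cells with at least 8000 detected genes were described, which left out 24 cells and kept 88.9%. The kept cells held 1679888 to 25630392 reads each, with a median of 3960857. Clustering gave 50 epiblast-like cells, 32 hypoblast-like cells and trophectoderm-like clusters with 60 and 51 cells, of which the smaller had the higher level of CCR7, a chemokine receptor gene. Clusters were named by marker lists of the lineages. That each class had the highest median sum of its own markers is therefore no separate check. The classes were not clean, however, since at least 3 markers of another class reached 10 CPM in 37 of the 50 epiblast-like, 30 of the 32 hypoblast-like, 6 of the 60 CCR7-low and 6 of the 51 CCR7-high cells. At least 3 markers of amnion reached this level in 3 epiblast-like cells and 1 CCR7-high cell, and those of syncytiotrophoblast in 1 epiblast-like, 2 hypoblast-like and 8 CCR7-high cells, whereas no cell had 3 markers of extraembryonic mesoderm, primitive streak, endothelium or fibroblasts. The level of a gene in a class is its summed reads over the summed reads of the class, scaled to 1000000 reads (CPM), and a value per cell is the CPM of that cell. Intervals are exact 95% Poisson intervals for CPM and exact 95% Clopper-Pearson intervals for shares of cells, and they cover counting error only, because copies of 1 cDNA are counted repeatedly. CPM from full-length reads grow with transcript length, so each gene was compared between classes and not with other genes. For RNA summed over a class, more cells with the RNA and more RNA per cell cannot be told apart, and the spread over cells is therefore given with each level.

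PDGFRA (ENSPTRG00000016066), the receptor of PDGFA, was a hypoblast-like transcript. All 32 hypoblast-like cells had reads of it, from 14.6 CPM in the lowest cell to a median of 418 and 1857 CPM in the highest, and the class level was 423 CPM (419.6 to 426.8). In the epiblast-like class only 13 of 50 cells had a read, the median was 0 and the level 5.72 CPM, of which 85% of the reads came from a single cell at 141.4 CPM. The trophectoderm-like clusters stood at 2.24 CPM in CCR7-low cells, with reads in 8 of 60, and at 2.66 CPM in CCR7-high cells, with reads in 23 of 51. No cell of either cluster passed 64.4 CPM. Hypoblast-like cells thus had a level 74.03-fold above the epiblast-like class. This ratio depended on which cells were put in the class. The classes here come from the neighbour graph, whereas the study's methods speak of clustering the UMAP embedding, and clustering on its coordinates kept 17 of the 32 cells in the class and gave 10.1-fold, while leaving out cells with markers of another class, after which 2 hypoblast-like cells were left, gave 451.6-fold. In the classes from the graph, hypoblast-like values overlapped with those of the other classes only at the lower end. Beside the hypoblast marker list, which does not hold PDGFRA, the 6 epiblast-like cells with at least 3 hypoblast markers at 10 CPM had 33.8 CPM of the receptor and the other 44 had 0.898 CPM. Only 2 of the 6 had a read, however, and without the cell at 141.4 CPM the level of the others was 0.83 CPM. Of 5 fibroblast markers, a cell type that also carries PDGFRA, 3 had no read in hypoblast-like cells, and the sum of the list did not pass 21.9 CPM in any of them.

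PDGFA (ENSPTRG00000043435), the ligand, was laid out the other way. Every epiblast-like cell had reads of it, with a lowest value of 7.33 CPM, a median of 67.6 and a highest of 181.9. Every trophectoderm-like cell had reads as well, with medians of 65.1 CPM in CCR7-low and 78.5 CPM in CCR7-high cells and highest values of 177.5 and 465 CPM. Among hypoblast-like cells 23 of 32 had a read, the median was 6.55 CPM and the highest value 76.9 CPM. Summed over cells, the levels were 66.8 CPM for epiblast-like, 12.4 CPM for hypoblast-like, 66.2 CPM in CCR7-low and 116.2 CPM in CCR7-high cells. Epiblast-like cells were 5.38-fold above hypoblast-like cells, while epiblast-like and CCR7-low cells lay within 1.01-fold of each other. The ligand was therefore read in all 3 classes, at its lowest level in the class that carried the receptor.

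**Figure D1:**
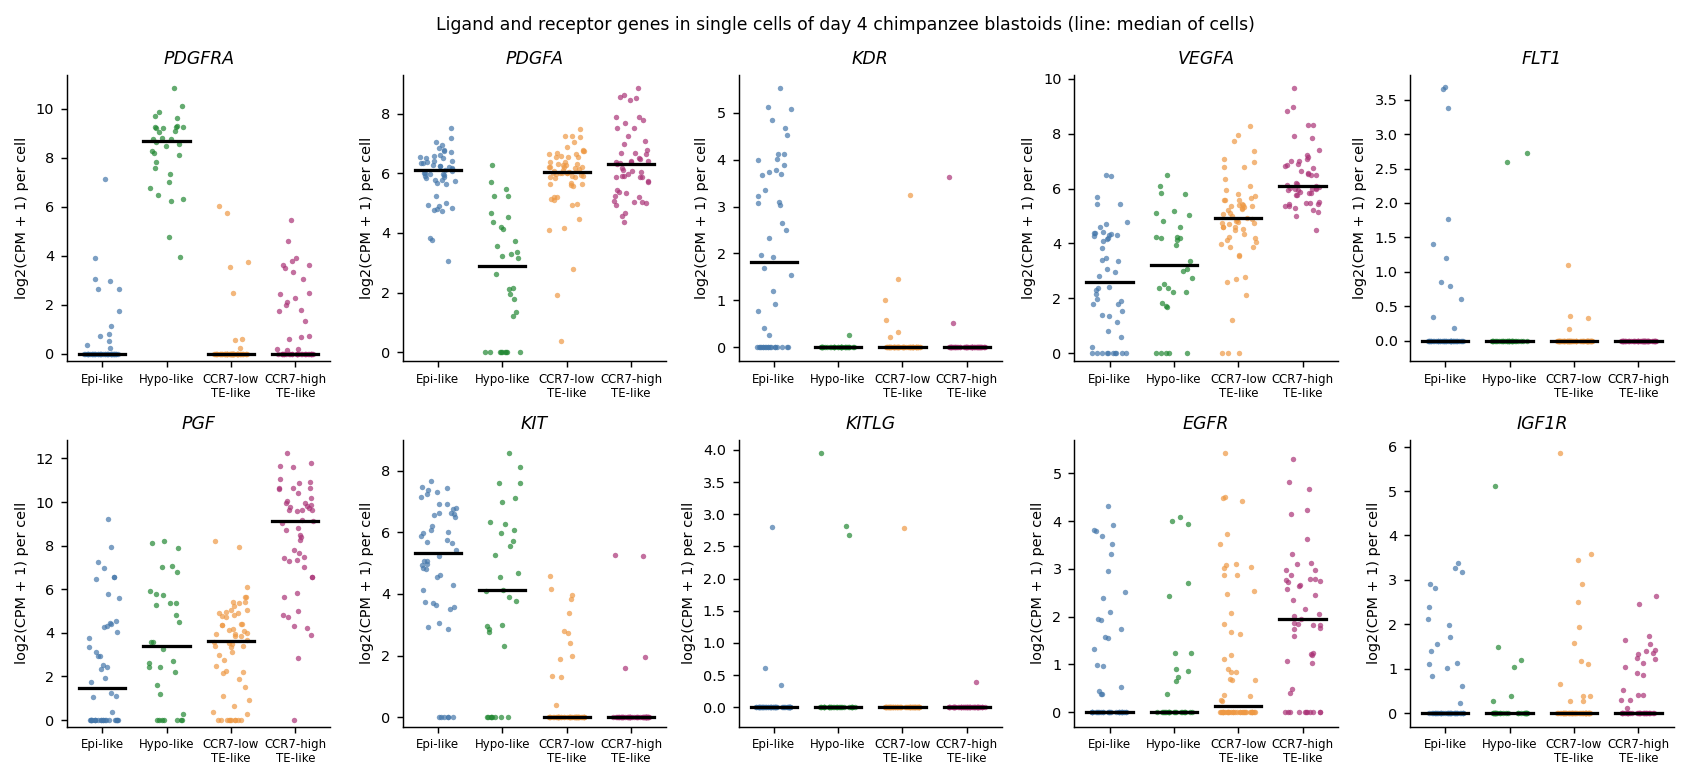
Each panel plots 1 gene as log2(CPM + 1) per cell (vertical axis) in epiblast-like, hypoblast-like, CCR7-low and CCR7-high trophectoderm-like cells, with a point for each cell and a line at the median. PDGFRA points of hypoblast-like cells stand above nearly all others, KDR points lie mostly in epiblast-like cells, KIT points in epiblast-like and hypoblast-like cells, and PGF is highest in CCR7-high cells, while most FLT1 and KITLG points lie at 0.

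Over all 32 hypoblast-like cells the receptor was lower where the ligand was higher. The 12 cells with at least 10 CPM of PDGFA had PDGFRA at 14.6 to 617 CPM with a median of 118.3, and the 20 cells with less PDGFA had 189.9 to 1857 CPM with a median of 567. Over the 32 cells Pearson's r of the log2(CPM + 1) values was -0.68 and Spearman's rho -0.69. Of these cells, the 17 that stayed hypoblast-like when cells were clustered on UMAP coordinates held 1 of the 12 and 16 of the 20, so that few of them had much PDGFA, and r among them was -0.16. Among the 15 that went to another class r was -0.68. These 15 had PDGFRA at 14.6 to 1119 CPM, and their median PDGFA was 17.5 CPM against 1.34 CPM in the 17. The same 2 sets of cells differed in lineage markers. Cells with at least 10 CPM of PDGFA had a median sum of hypoblast markers of 329.6 CPM against 2217 CPM in the others, of epiblast markers of 799 against 286 CPM, and of trophectoderm markers of 1461 against 829 CPM. FOXA2, an endoderm transcription factor, reached 10 CPM in 1 of the 12 cells and in 13 of the 20. GATA4, another factor of this lineage, did so in 2 of the 12 and in 15 of the 20. Their part in the PDGFA and PDGFRA pattern was not tested, and this split was made after the values per cell had been seen. When cells were divided by any read of FOXA2 instead, the 14 FOXA2-positive cells had 610 CPM of PDGFRA and 1.92 CPM of PDGFA, and the 18 FOXA2-negative cells had 289 and 20.0 CPM.

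KDR (ENSPTRG00000016069), the main signalling receptor of VEGFA, was an epiblast-like transcript of modest level. Reads were found in 32 of the 50 epiblast-like cells, 15 of them at 10 CPM or more, with a median of 2.51 CPM and a highest value of 45.5 CPM. The class level was 7.91 CPM (7.54 to 8.30). The hypoblast-like class held 1 read of KDR in 1 of 32 cells, which corresponds to 0.0078 CPM with an upper bound of 0.0433 CPM. Among trophectoderm-like cells 6 of 60 CCR7-low and 2 of 51 CCR7-high cells had a read, and 1 CCR7-high cell at 11.4 CPM gave 97.4% of the reads of its cluster. The trophectoderm-like level was 0.279 CPM, so that epiblast-like cells were 28.4-fold above it. In trophectoderm-like cells with fewer than 3 epiblast markers at 10 CPM the level was 0.0383 CPM, and in the 11 cells with at least 3 it was 2.71 CPM. Of these 11 cells 4 had a read and 1 reached 10 CPM, and without that cell the level was 1.28 CPM. KDR is also an endothelial gene, and of 5 other endothelial markers 2 had a level of at least 10 CPM in epiblast-like cells, with a list sum of 0 to 389.5 CPM per cell and a median of 17.1, although no epiblast-like cell had 3 of them at that level. Their part in the KDR level was not tested. Thinning every cell to 2532312 reads left KDR in 66.7% of 48 epiblast-like cells (51.6% to 79.6%), in 6.0% of trophectoderm-like cells (2.23% to 12.6%) and in none of 25 hypoblast-like cells, for which 3 counts correspond to 12% of cells and the exact upper bound is 13.7%. The fold of KDR over the next class was 3.51 with the median per cell plus 1 CPM, and 57.9 from summed reads at a clustering resolution of 1.5, at which 98.96% of cells kept their class.

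VEGFA (ENSPTRG00000043213) was present in every class and highest in the trophectoderm-like clusters. Epiblast-like cells ranged from 0 to 88.5 CPM with a median of 5.15, and hypoblast-like cells from 0 to 88.3 CPM with a median of 8.37, so that these classes overlapped throughout. CCR7-low cells ranged from 0 to 307 CPM with a median of 29.4, and every CCR7-high cell had reads, from 21.5 to 818 CPM with a median of 67.1. The levels were 12.1, 15.6, 41.1 and 132.8 CPM in the same order. Trophectoderm-like cells together were 5.51-fold above hypoblast-like cells, which became 3.49-fold at a clustering resolution of 1.5 and 9.04-fold without cells with markers of another class. CCR7-high cells were 3.23-fold above CCR7-low cells.

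PGF (ENSPTRG00000006545) differed between the trophectoderm-like clusters, although their cells overlapped, with 0 to 295 CPM in CCR7-low cells. In CCR7-high cells its level was 870 CPM (866 to 873), with a median of 559 CPM, a highest value of 4848 CPM and reads in all but 1 of the 51 cells. The CCR7-low cluster had 25.03 CPM against 26.5 CPM for epiblast-like and 38.9 CPM for hypoblast-like cells. By the median cell CCR7-low cells came first instead of last of these, with 11.2 CPM in CCR7-low, 9.68 CPM in hypoblast-like and 1.83 CPM in epiblast-like cells, and 10 CPM was reached in 33 of 60, 16 of 32 and 16 of 50 cells. CCR7-high cells were thus 34.8-fold above CCR7-low cells. Of the 15804 genes tested 4.74% were at least 4-fold higher in CCR7-high cells, and of the 8 genes described here that were tested PGF alone was, as KITLG and FLT1 had reads in fewer than 20 cells. In the epiblast-like class 1 cell at 601 CPM held 31.4% of the PGF reads. Those epiblast-like cells that had at least 3 trophectoderm markers at 10 CPM, 36 cells, had 34.4 CPM of PGF against 4.95 CPM in the other 14, and without the cell at 601 CPM they had 23.5 CPM. For hypoblast-like cells the values were 45.2 CPM in 27 cells and 2.15 CPM in 5 cells. The part of these markers in the PGF level was not tested. A list of 4 syncytiotrophoblast markers summed to 0 to 14340 CPM in CCR7-high cells, with a median of 34.4, and at least 3 of them reached 10 CPM in 8 of the 51 cells and in none of the CCR7-low cells.

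FLT1 (ENSPTRG00000005743), the receptor shared by VEGFA and PGF, was nearly missing from these cells. It had reads in 11 of 50 epiblast-like cells, with a highest value of 11.8 CPM and a level of 0.758 CPM (0.646 to 0.883). Only 2 hypoblast-like cells had reads, at 5.61 and 5.04 CPM, and 4 CCR7-low cells, at no more than 1.13 CPM. The CCR7-high cluster, in which both ligands were highest, had no FLT1 read in 51 cells, and a limit of 3 counts corresponds to 5.88% of cells and to 0.0120 CPM, with exact upper bounds of 6.98% and 0.0147 CPM. Counts per gene do not separate the soluble from the membrane form of FLT1. NRP1, the coreceptor neuropilin 1 that binds VEGFA and PGF, was 106.3 CPM in CCR7-high cells, with reads in 43 of 51, against 2.24 CPM in CCR7-low, 6.67 CPM in hypoblast-like and 0.521 CPM in epiblast-like cells. NRP1 and PGF both reached 10 CPM in 33 of the 51 CCR7-high cells and in 2 of the 60 CCR7-low cells.

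KIT (ENSPTRG00000016067), the stem cell factor receptor, was shared by epiblast-like and hypoblast-like cells. Epiblast-like cells had a level of 58.8 CPM (57.7 to 59.8), a median of 39.4 and a highest value of 199.9 CPM, with reads in 44 of 50 cells. Hypoblast-like cells had 47.2 CPM (46.01 to 48.4), a median of 16.4 and a highest value of 379.5 CPM, with reads in 24 of 32. The 2 ranges overlapped fully. The epiblast-like level was 1.25-fold the hypoblast-like one, but 2.28-fold when cells were clustered on UMAP coordinates, 2.33-fold by the median per cell plus 1 CPM and 3.40-fold without cells with markers of another class. Trophectoderm-like cells stood at 1.20 CPM, 39.4-fold below the hypoblast-like level. There the receptor had reads in 13 of 60 CCR7-low cells, none of which passed 22.96 CPM, and in 4 of 51 CCR7-high cells, at 37.7, 36.4, 2.88 and 2.02 CPM. Those 4 cells were all among the 6 CCR7-high cells with at least 3 epiblast markers at 10 CPM. In hypoblast-like cells KIT was 64.1 CPM in the 21 cells with at least 3 epiblast markers and 17.2 CPM in the 11 with fewer, or 54.9 and 9.805 CPM without the highest cell of each set.

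KITLG (ENSPTRG00000005281), the ligand of KIT, had reads in only 3 epiblast-like, 3 hypoblast-like, 1 CCR7-low and 1 CCR7-high cell. The hypoblast-like cells had 14.5, 6.08 and 5.37 CPM, which gave the highest class level, 1.43 CPM (1.23 to 1.65), with 75% of its reads from 1 cell. The epiblast-like cells had 5.98, 0.534 and 0.269 CPM. With 3 cells or fewer in each class, the order of the classes rests on single cells.

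EGFR (ENSPTRG00000019196) and IGF1R (ENSPTRG00000007489) were low in all classes. EGFR, which binds EGF and its relatives, stood at 2.55 CPM in epiblast-like cells, at 1.59 in hypoblast-like cells, 2.54 CPM in CCR7-low and 5.91 CPM in CCR7-high cells, with reads in 23 of 50, 12 of 32, 30 of 60 and 40 of 51 cells. The highest cell had 42.2 CPM, and the CCR7-high level was 2.33-fold the CCR7-low level. Trophectoderm-like cells together were 1.64-fold above the next class, and 8.69-fold without cells with markers of another class, which left 13 epiblast-like and 2 hypoblast-like cells. IGF1R, the receptor of IGF1 and IGF2, lay between 0.794 CPM in hypoblast-like and 1.36 CPM in CCR7-low cells. Its order was not settled by these cells, because 1 cell gave 82.4% of the hypoblast-like and 1 cell 52.1% of the CCR7-low reads.

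**Figure D2:**
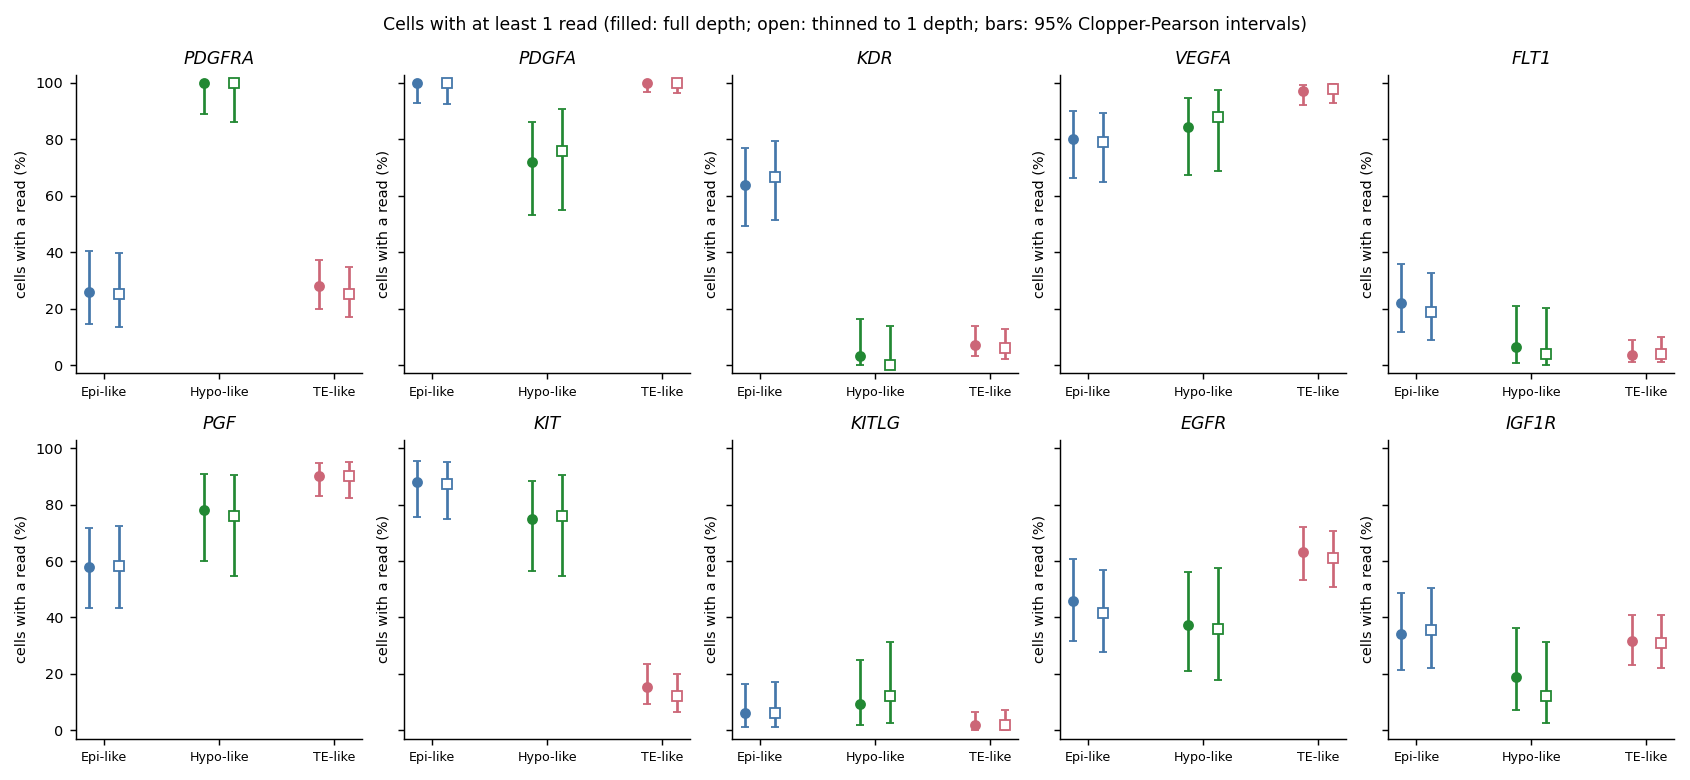
Each panel shows, for 1 gene, the percentage of cells with at least 1 read (vertical axis) in epiblast-like, hypoblast-like and trophectoderm-like cells. Filled points are full depth, open points are cells thinned to the same number of reads, and bars are 95% Clopper-Pearson intervals. Thinning moved the points little, and the KDR and KIT intervals of epiblast-like cells stay above those of trophectoderm-like cells.

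Over the 8 genes with a read in at least 20 cells, 4 had a level at least 4-fold above the next class. KDR was the epiblast-like one, beside 4.55% of the 15804 genes tested that were higher in this class by the same rule. Of the 41 cells with a read of KDR 32 were epiblast-like, so KDR met the minimum of 20 cells through this class. PDGFRA was the hypoblast-like one, beside 0.962% of genes, and VEGFA and PGF were the trophectoderm-like ones, beside 3.33%. The median log2 ratio of the highest to the next class was 1.59 over the 8 genes and 0.41 over all genes tested. The 8 genes were chosen with earlier results of these data known, so this difference is a description. At least 4-fold below every other class were PDGFA and KDR in hypoblast-like cells, beside 2.93% of genes, and KIT in trophectoderm-like cells, beside 4.74%. The KDR call in hypoblast-like cells rests on 1 read. When the median of the values per cell, with 1 CPM added, replaced the summed reads, KDR and PGF were no longer 4-fold above the next class, at 3.51-fold and 2.91-fold. At a clustering resolution of 1.5 VEGFA was no longer so, at 3.49-fold, and PGF was at 4.06-fold. PDGFRA was above 4-fold under each alternative tried. Leaving these 10 genes and the family lists out of the clustering left every cell in its class.

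Each of the 5 ligand and receptor pairs had its ligand highest in another class than its receptor, beside 64.05% of all pairs of genes tested, and the pairs share VEGFA and FLT1. PDGFA and VEGFA were highest in trophectoderm-like cells and their receptors PDGFRA and KDR in hypoblast-like and epiblast-like cells. PGF and VEGFA were highest in trophectoderm-like cells and FLT1 in epiblast-like cells, and KITLG was highest in hypoblast-like cells and KIT in epiblast-like cells. The KIT level of epiblast-like cells was only 1.25-fold the hypoblast-like level, and 1.03-fold by the mean per cell. For the pairs with FLT1 and with KITLG the order rests on few cells. With the median per cell FLT1 and KITLG were at 0 CPM in every class and had no highest class. Only PDGFA with PDGFRA and VEGFA with KDR then had a defined order, and these still differed.

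The pairs were also read cell by cell, at 10 CPM or more of both genes. PDGFA and PDGFRA both reached 10 CPM in 12 of 32 hypoblast-like cells (37.5%, 21.1% to 56.3%), where the other 20 had the receptor alone, and in 2 of 50 epiblast-like cells, where 47 had the ligand alone. Among trophectoderm-like cells 4 of 60 and 7 of 51 held both. Every epiblast-like and trophectoderm-like cell with PDGFRA at this level had PDGFA at it too, as the ligand was read at 10 CPM in nearly all of them. VEGFA and KDR both did so in 4 of 50 epiblast-like cells, while 16 had the ligand alone, 11 the receptor alone and 19 neither. KITLG and KIT met in 1 hypoblast-like cell, and PGF and FLT1 in none at this level, with KITLG and FLT1 almost unread in all classes. Whether cells were neighbours in a blastoid is not recorded in the data.

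**Figure D3:**
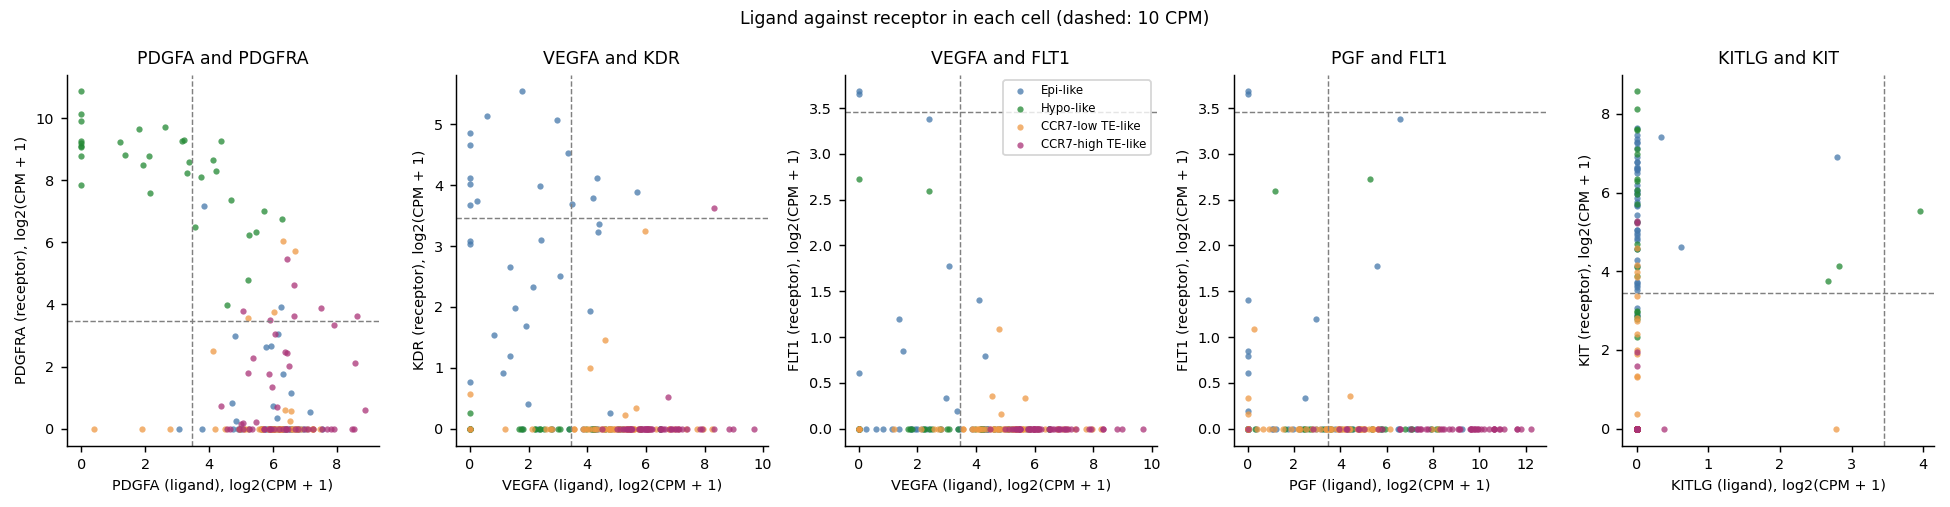
Each panel plots a ligand (horizontal axis) against its receptor (vertical axis), both as log2(CPM + 1), with a point for each cell coloured by class and dashed lines at 10 CPM. In the PDGFA and PDGFRA panel hypoblast-like cells run from high receptor and low ligand towards the trophectoderm-like and epiblast-like cells at high ligand and low receptor, and the VEGFA and FLT1 and PGF and FLT1 panels have no cell with both above the lines.

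Levels also differed between states inside a class. Among CCR7-high cells, the 27 with reads of CGA, the common subunit gene of glycoprotein hormones, had 1471 CPM of PGF, 193.6 CPM of VEGFA and 174.5 CPM of PDGFA. The 24 cells without CGA had 244 CPM of PGF, 69.6 CPM of VEGFA and 55.7 CPM of PDGFA. The ranges of the states overlapped for each of the 3 ligands, for example 17.9 to 4848 CPM and 0 to 989 CPM for PGF. Over the 51 CCR7-high cells PDGFA and PGF had a Pearson's r of 0.61, and VEGFA and PGF of 0.49, and in the 60 CCR7-low cells the same values were -0.0035 and 0.06. Between states of the epiblast-like class, levels of KIT and KDR were close. The 23 epiblast-like cells with reads of ISL1, an amnion-associated factor, had 53.5 CPM of KIT and 7.69 CPM of KDR. The 27 without had 63.7 and 8.11 CPM.

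The other members of the families were read from fixed lists of ligands, receptors, adaptors, inhibitors and ligand proteases. Of 60 such genes that were matched, 44 were tested. At least 4-fold higher were 3 in epiblast-like, 1 in hypoblast-like and 5 in trophectoderm-like cells, beside the 4.55%, 0.962% and 3.33% of all genes tested. By the same fold 2 were lower in epiblast-like, 3 in hypoblast-like and 2 in trophectoderm-like cells, beside 1.35%, 2.93% and 4.74% of all genes. In the PDGF family PDGFB, which also binds PDGFRA, reached only 1.68 CPM in CCR7-high cells, and PDGFC 0.623 CPM in epiblast-like cells. PDGFRB, the second PDGF receptor, was at or below 0.939 CPM everywhere and had no read in hypoblast-like cells. In the IGF family IGF1 was highest in hypoblast-like cells at 4.99 CPM, with reads in 12 of 32, and IGF2 was at or below 0.386 CPM. IGF2R, which takes up IGF2 for degradation, was 26.99 CPM in hypoblast-like, 31.9 in CCR7-low and 27.7 in CCR7-high cells against 7.94 CPM in epiblast-like cells. IGFBP4, an IGF-binding protein, was 8.28 CPM in epiblast-like cells and at or below 1.28 CPM elsewhere. Of the 16 adaptors and inhibitors, SPRY2, a feedback inhibitor of receptor signalling, was 34.7 CPM in epiblast-like and 32.4 CPM in hypoblast-like cells but 1.25 CPM in trophectoderm-like cells. KIT and SPRY2 both reached 10 CPM in 35 of 50 epiblast-like cells. A separate list held 10 genes known to respond to hypoxia, as VEGFA does, all of which were tested. Of these EGLN3 was highest in hypoblast-like cells at 731 CPM, ADM in CCR7-high cells at 74.8 CPM, and P4HA1 and PDK1 were at least 4-fold lower in trophectoderm-like cells.

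**Figure D4:**
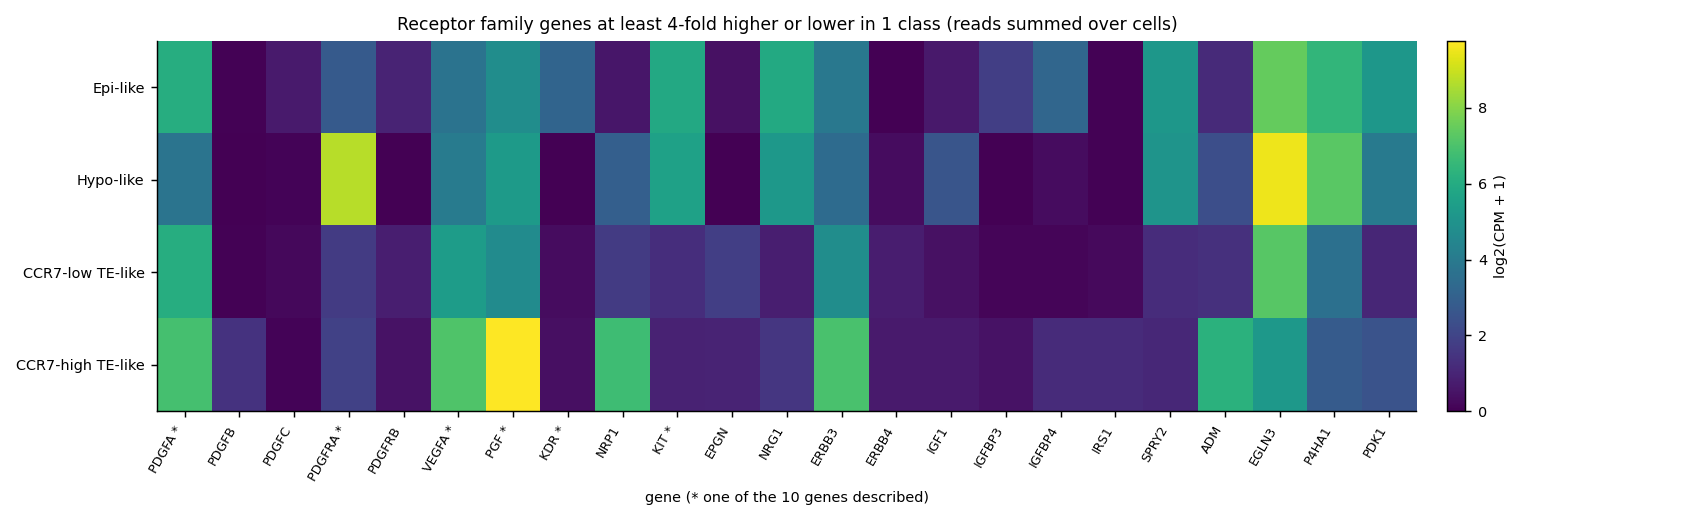
The heat map shows log2(CPM + 1), from reads summed over cells, of the listed family genes that were at least 4-fold higher or lower in 1 class (horizontal axis, an asterisk marks the 10 genes described) in the 4 groups of cells (vertical axis). PDGFRA and EGLN3 are brightest in hypoblast-like cells, and PGF, NRP1, ERBB3 and ADM in CCR7-high trophectoderm-like cells.

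For each gene the most similar transcripts over all kept cells were found by Pearson's r of log2(CPM + 1) among genes with reads in enough cells. PDGFRA was most like SOX17 (0.79), a gene of the hypoblast list, and GSC (0.79). Within the 32 hypoblast-like cells these values were 0.62 and 0.18. PGF was most like SLCO4A1 (0.78), GCM1 (0.78) and ADGRG1 (0.77), and the values were 0.83, 0.75 and 0.77 within trophectoderm-like cells. GCM1 is a transcription factor of the placental syncytiotrophoblast. KDR was most like ZSCAN10 (0.72), TMEM271 (0.69) and OLAH (0.66), with 0.57, 0.42 and 0.43 within epiblast-like cells. KIT was most like CXCL12 (0.76), KCNN1 (0.74) and GDF3 (0.73), with 0.40, 0.53 and 0.43 within the same class. VEGFA was most like TEAD3 (0.72), a factor of the trophectoderm list, GRHL1 (0.70) and SLC38A1 (0.68), with 0.49, 0.51 and 0.46 within trophectoderm-like cells. PDGFA was most like TFAP2C (0.65), RASGRP2 (0.64) and FXYD5 (0.57), but within that class the values were 0.33, 0.077 and 0.039. For EGFR and IGF1R the highest values were 0.40 and 0.31. These values are across cells, each of which is its own library, and are descriptions of shared pattern.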

How the data were processed

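Single cells of day 4 chimpanzee blastoids were profiled by SMART-seq2. The authors trimmed the reads, aligned them with STAR and deposited counts of reads per gene, not normalized, for 217 cells and 33729 Ensembl identifiers. The study's methods name FastP and the chimpanzee genome, whereas the processing notes in the labels name Trim Galore 0.6.6, STAR 2.7.7a and the human genome. The identifiers are chimpanzee ones. Symbols were matched for 18783 identifiers, and gene positions and sequences were not used.

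Cells with at least 4000 reads and 8000 detected genes were kept, 193 in all. The study states the same minimums but a smaller number of cells and of genes left by its filters, so its set of cells differs from the one used here, and which cells account for the difference is not given in the sources used here. Genes with a read in at least 20 kept cells, 15804 in all, were clustered and compared. Scanpy 1.11.5 normalized each cell, took log1p values, 50 principal components and 30 neighbours, and clustered the neighbour graph with leidenalg 0.10.2 at resolution 1. The study's methods speak of Leiden clustering of the UMAP embedding, which may mean this graph or the UMAP coordinates, so clustering on the coordinates was run as an alternative. Clusters took the name of the lineage whose marker list had the highest mean standardized level. The lists were 10 epiblast, 12 hypoblast and 12 trophectoderm genes, none of them among the 10 genes described. Lists for amnion, extraembryonic mesoderm, primitive streak, endothelium, fibroblasts and syncytiotrophoblast were also summed per cell. Doublets were not called.

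CPM of classes were compared by fold, with a class at 0 set to 3 reads. By rule the genes named are the 10 members, listed family genes with at least 10 CPM in a class and 4-fold over the next (NRP1, ERBB3, ADM and EGLN3), and the 3 genes most correlated with each tested member among genes read in at least 50% of the cells of its highest class, of which 1 is not reported here. Other family genes, and the genes that split a class into states, were chosen for naming after their values were seen. The members and lists were chosen with earlier results of these data known. Shares were also computed after drawing 2532312 reads from every cell (the 10th percentile of depth), which left out 20 shallower cells. The steps were checked on simulated counts with known folds. Alternatives covered cell and gene filters, clustering settings, size factors, thinning, summaries over cells and leaving out cells with markers of several lineages. Other software was matplotlib 3.10.9, scipy 1.17.1, pandas 2.3.3, numpy 2.4.6 and Python 3.11.15.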

Additional observations from a re-analysis of the deposited data

Results flagged for a closer look

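The 24 cells left out for having fewer than 8000 detected genes, with 5792 to 3863814 reads each, were not used above but held reads of 7 of the 10 genes in more than the 12.5% of cells that a count of 0 would allow. PDGFA was read in 91.67% of them, VEGFA and PGF in 58.33% each, PDGFRA in 45.83%, KIT in 37.5%, EGFR in 25% and KDR in 20.83%. Below that share were FLT1 and KITLG, each at 8.33%, and IGF1R at 4.17%. Single cells among them reached 8976 CPM of PGF, 2497 CPM of VEGFA, 617.7 CPM of PDGFRA and 515.6 CPM of KIT. The cell highest in PGF and in VEGFA had 2795839 reads, that highest in PDGFRA 3036873 and that highest in KIT 996890. These cells were given no class.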

How the results depend on the processing

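With the median per cell plus 1 CPM in place of summed reads, 2 of the genes were at least 4-fold higher in 1 class, against 4. Pairs counted as highest in different classes were 3, against 5, but this count includes ties. FLT1 and KITLG had a median of 0 CPM in every class, so only PDGFA with PDGFRA and VEGFA with KDR had a defined order. The other 41 of 43 alternative values of these counts and of the count of genes 4-fold lower stayed within 1.5 times. No called ratio changed sign. The log2 ratio of the highest to the next class ranged over the alternatives from 3.34 to 8.82 for PDGFRA, 1.81 to 5.86 for KDR, 1.801 to 3.18 for VEGFA, 1.54 to 6.83 for PGF, 0.035 to 1.77 for KIT and 0.59 to 3.12 for EGFR, whose highest value came without cells with markers of another class. Clustering on UMAP coordinates left 17 instead of 32 cells hypoblast-like, with 92.2% of cells in the same class, and gave the 3.34 of PDGFRA. In a comparison added after seeing the data, these 17 cells had a Pearson's r of PDGFA and PDGFRA of -0.16, against -0.68 both over the 32 and over the 15 that moved. At resolution 1.5 VEGFA fell to 1.801 and 3 genes were at least 4-fold higher in 1 class. Leaving out cells with markers of another class left 13 epiblast-like and 2 hypoblast-like cells. With another clustering seed, or without the family genes, the trophectoderm-like clusters held 72 and 39 cells, and the log2 ratio of PGF between them was 4.69 instead of 5.12. IGF1R ranged from -0.54 to 0.20 and had no stable order. No paired analysis was possible because the cells form 1 sample. Reads are not molecules, so counting intervals are too narrow, and a gene such as FLT1 or KITLG can be missed in a cell by SMART-seq2 without being absent from it.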

Other observations

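In another branch of the EGF receptor family, NRG1 and ERBB3 were highest in different classes, beside 64.05% of all pairs of genes tested. This pair was chosen after its values were seen. NRG1, a ligand of ERBB3, was 59.4 CPM in epiblast-like cells, with reads in 48 of 50, and 35.5 CPM in hypoblast-like cells, with reads in 29 of 32. In trophectoderm-like cells it was 1.33 CPM, with reads in 10 of 60 CCR7-low and 15 of 51 CCR7-high cells. ERBB3, which signals with a partner such as ERBB2, ran the other way. Its level was 26.9 CPM in CCR7-low and 124.01 CPM in CCR7-high cells, all of which had reads, against 14.02 CPM for epiblast-like and 9.67 CPM for hypoblast-like cells. ERBB2 was 16.6 CPM for epiblast-like, 9.41 for hypoblast-like, 14.5 for CCR7-low and 39.4 CPM for CCR7-high cells. NRG1 and ERBB3 both reached 10 CPM in 15 of 50 epiblast-like, 11 of 32 hypoblast-like, 0 of 60 CCR7-low and 4 of 51 CCR7-high cells. Of the other EGF family ligands NRG4 was 3.88 CPM for epiblast-like, 7.18 for hypoblast-like and 1.37 CPM for trophectoderm-like cells. HBEGF was 2.696 CPM for epiblast-like, 1.02 for hypoblast-like, 6.59 for CCR7-low and 1.61 CPM for CCR7-high cells. EPGN was 1.75 CPM for trophectoderm-like and 0.339 CPM for epiblast-like cells, with no read in hypoblast-like cells. EGF was at or below 0.451 CPM, and AREG and BTC were read in at most 1 cell of any class.

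The inhibitors of EGF family receptors ERRFI1 and LRIG1 were also read, and were chosen after their values were seen. Neither reached the fold set for a call, with the highest class 2.50-fold above the next for ERRFI1 and 2.97-fold for LRIG1. ERRFI1, which binds and blocks the EGFR kinase, had 23.6 CPM in the epiblast-like class, 76.2 in the hypoblast-like class, 116.1 in CCR7-low and 268 CPM in CCR7-high cells. LRIG1, which promotes degradation of these receptors, was 49.98 CPM in epiblast-like and 16.9 CPM in hypoblast-like cells and 7.13 CPM in trophectoderm-like cells.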
